A study of Arabidopsis thaliana with 6 samples.

Results

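The brightest nuclear transcripts of wild-type Arabidopsis thaliana rosettes were taken as the probe sets whose mean signal over the 3 wild-type arrays was at least 2200, without array controls and without probe sets annotated to the plastid or mitochondrial genome. Of 22810 probe sets on the Affymetrix ATH1 array, 224 reached that mean, 7 of them controls and 25 of them organelle probe sets, which left 192 members, or 0.847% of the 22669 nuclear probe sets. The members were compared between the apk1 apk2 double mutant (3 arrays) and the wild type Col-0 (3 arrays). The mutant came from a cross of a pair of insertion lines, salk_053427 and salk_093072, and is labelled as mutant in APK1 and APK2, which encode APS kinases, enzymes that make the sulfate donor PAPS. Each array was hybridised with RNA of its own pool of 10 entire rosettes. The plants of both genotypes grew for 35 days on compost in a day of 10 h and a night of 14 h, at 60% humidity and 22 °C, and were cut before bolting, 4 h into the light period. No probe set was named for APK1 or APK2 in the probe table used here, so the labels were not checked against those transcripts.

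A green rosette in the light devotes much of its messenger RNA to photosynthesis. Nuclear genes encode the antenna proteins that bind chlorophyll, many small subunits of both photosystems, and the stromal enzymes that fix carbon. The proteins are made on cytosolic ribosomes and imported into the plastid. Ribosomal proteins, housekeeping enzymes and small secreted proteins are further classes that are commonly abundant in leaves. Because so many cells and complexes depend on such transcripts, some of them are also used as reference genes.

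The signal is on a linear scale that the authors had set so that each array has nearly the same average, and the median over all probe sets lay between 32.5 and 34.5 on the 6 arrays. A signal of 2200 therefore lay far up the scale. All 192 members were above the 98th percentile of every array, a value between 1318 and 1347. Signal depends on each probe set's own binding, so the order of signals is an order of probe sets and not of transcript amounts. The lowest member had a wild-type mean of 2201 and the highest nuclear probe set left out had 2170, so the boundary falls in an unbroken run of values.

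Only part of the list could be named. Of the 192 members, 48 named 1 gene each, all different genes, 10 named several genes and 134 named none in the table used here. A total of 25 members carried the suffix of probe sets that share probes with related transcripts. Rubisco activase, RCA, was the 1 leaf marker of 4 with a named probe set, and it was a member. Signals of the root hair expansins EXPA7 and EXPA18 and of the seed protein PAP85 were below each array's 40th percentile throughout. PYK10, a beta-glucosidase best known from roots, had 442, 394 and 464 in the mutant, against 241, 249 and 315 in the wild type. The flower, guard cell and myrosin cell markers had no named probe set here. In RNA from whole rosettes, fewer cells of a type and less RNA per cell cannot be told apart.

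Among the named members with the highest signals, AT2G25510 came first. It had 8778, 9105 and 7717 in the mutant, against 9013, 7743 and 7219 in the wild type. ECS1, a small cysteine-rich secreted protein, followed with 8303, 8673 and 6565 in the mutant and 7928, 6882 and 6262 in the wild type. The genotypes overlapped for both. AT3G22240 had 6839, 7964 and 6545 in the mutant and 7440, 6786 and 6049 in the wild type. RCA, which keeps Rubisco active, had 6491, 6874 and 5464 in the mutant, against 7268, 5784 and 5595 in the wild type. The antenna protein LHCB4.1 of photosystem II had 6129, 6585 and 5683 in the mutant, against 6520, 6097 and 5542 in the wild type. For each of these the 2 genotypes covered almost the same range, and replicate 3 was the lowest mutant array. The first 15 named members by wild-type signal also held LHCB4.2, the peroxidase PRXR1, the photosystem I subunits PSAE-1 and PSAN, the lipid transfer-type secreted protein AT2G45180, AT2G26500 (the PetM subunit of the cytochrome b6f complex), the photosystem II subunit PSBY, the calmodulin-like protein AT2G41090, AT1G78040, a secreted protein of the Ole e 1 type, and the plastid ATP synthase subunit ATPC1. Of these 15, AT2G45180 alone passed the test between genotypes, described further on.

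**Figure D1:**
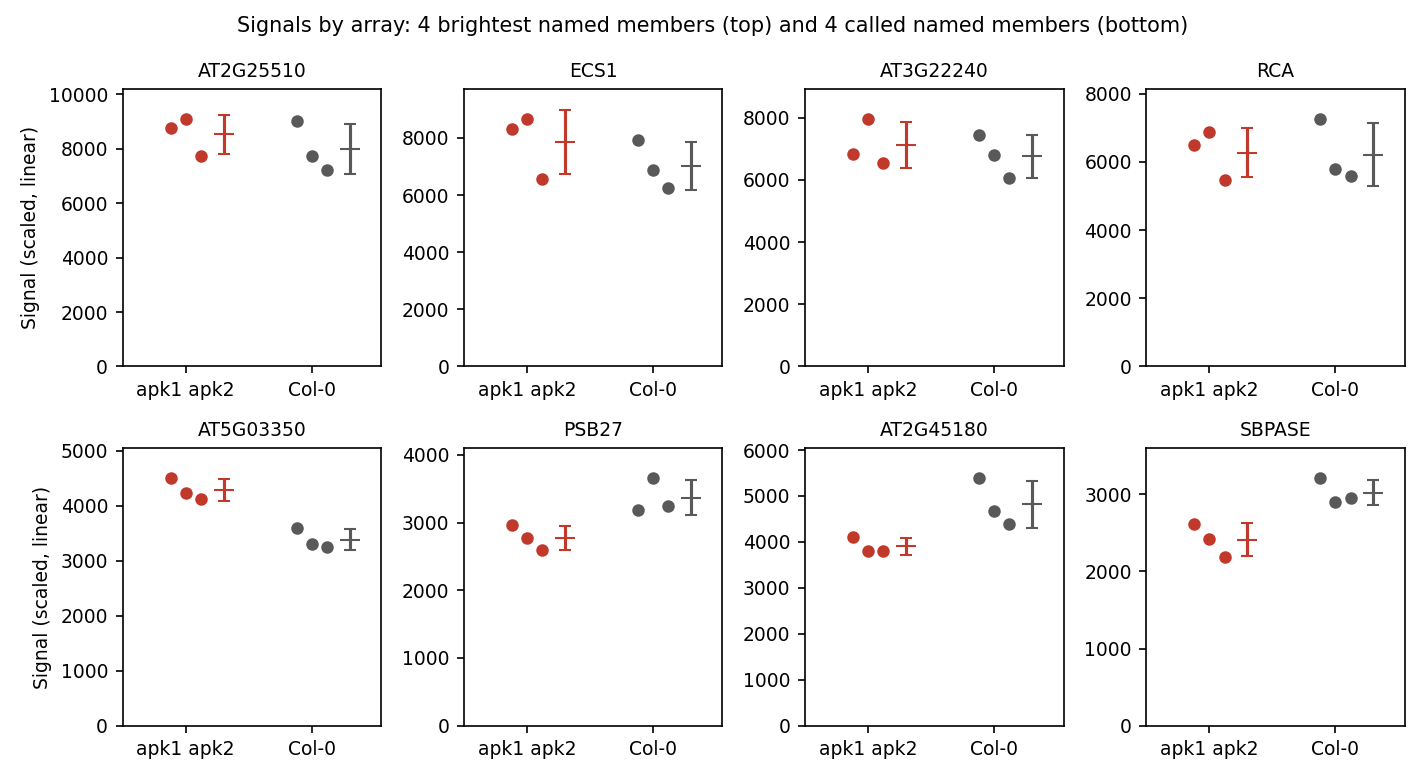
Signal on each array (linear, axes from 0) for the 4 named members with the highest wild-type mean (top row) and the 4 named members called between genotypes (bottom row), with apk1 apk2 left of Col-0. Points are arrays, and the bar beside them is the mean with its SD (n = 3). The genotypes overlap in the top row, while in the bottom row AT5G03350 is higher in every mutant array and SBPASE, AT2G45180 and PSB27 are lower in every mutant array.

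The set of brightest probe sets was largely the same in both genotypes. Chosen by the same threshold on the mutant arrays, the list held 201 probe sets, and 174 were on both lists, which is 90.6% of the wild-type list and 86.6% of the mutant list. Of the 10 brightest members in the wild type, 9 were also among the 10 brightest in the mutant. For the 20, 50 and 100 brightest the shared numbers were 18, 45 and 95. The 18 members that did not reach 2200 in the mutant had mutant means between 1679 and 2177, and 13 of them had wild-type means under 2500. Of these 18, 6 were called lower in the mutant, against 5.55% of all tested probe sets, and the rest did not pass the test. They were picked by a mutant mean under 2200, so their lower values there are a description.

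Few members changed, and their changes were small. With limma fitted over all 13848 tested probe sets and an adjusted p under 0.05, 17 of 192 members (8.85%) were called, against 11.3% of all tested probe sets. Of the members, 4 (2.08%) were higher in the mutant, against a background of 5.79%, and 13 (6.77%) were lower, against 5.55%. Since the list was chosen on the wild-type arrays, which also enter the comparison, the choice itself favours lower values in the mutant. Chosen instead on all 6 arrays, 12 members were higher and 10 lower. Chosen on the mutant arrays, 27 of 201 were higher and 7 lower. Of those 27, 23 were absent from the wild-type list, and that choice favours higher values in the mutant. These counts come from lists that are not of equal length. The direction of the split therefore moved with how the list was chosen. Single arrays also moved the counts: 2 were higher and 5 lower without wild-type replicate 2, 2 and 6 when wild-type replicate 3 was left out, and 4 and 6 when mutant replicate 3 was. With no trend of the variance on signal, 1 was higher and 2 were lower. With the replicate number as a block the count of calls was larger, 4 higher and 23 lower. The shares over all tested probe sets were taken from the main fit alone, so the counts of these other fits have none beside them. In 42 members (21.9%) the genotypes did not overlap, with the mutant higher in 10 and lower in 32, against 28.7% of all tested probe sets, 13.0% higher and 15.7% lower. At an unadjusted p under 0.05 there were 32 members (16.7%), against 23.7%.

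The intervals show how large a change in signal the 6 arrays leave possible. Whether signals this bright follow transcript amounts in proportion was not tested. For 185 of 192 members (96.4%) the 95% interval of the change lay within 1.5-fold either way, against 62.6% of all tested probe sets. The estimate itself lay within 1.2-fold for 169 members, and the median size of the change was 1.06-fold. A change of at least 1.5-fold with an adjusted p under 0.05 was found for 2 members (1.04%), against 5.93% of all tested probe sets. The log2 change, mutant minus wild type, ranged from −0.73 to 0.74 over the members, with a median of −0.05, while the median over all tested probe sets was −0.02. All 48 members that name 1 gene had intervals within 1.5-fold, as did 9 of the 10 that name several and 128 of the 134 that name none.

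**Figure D2:**
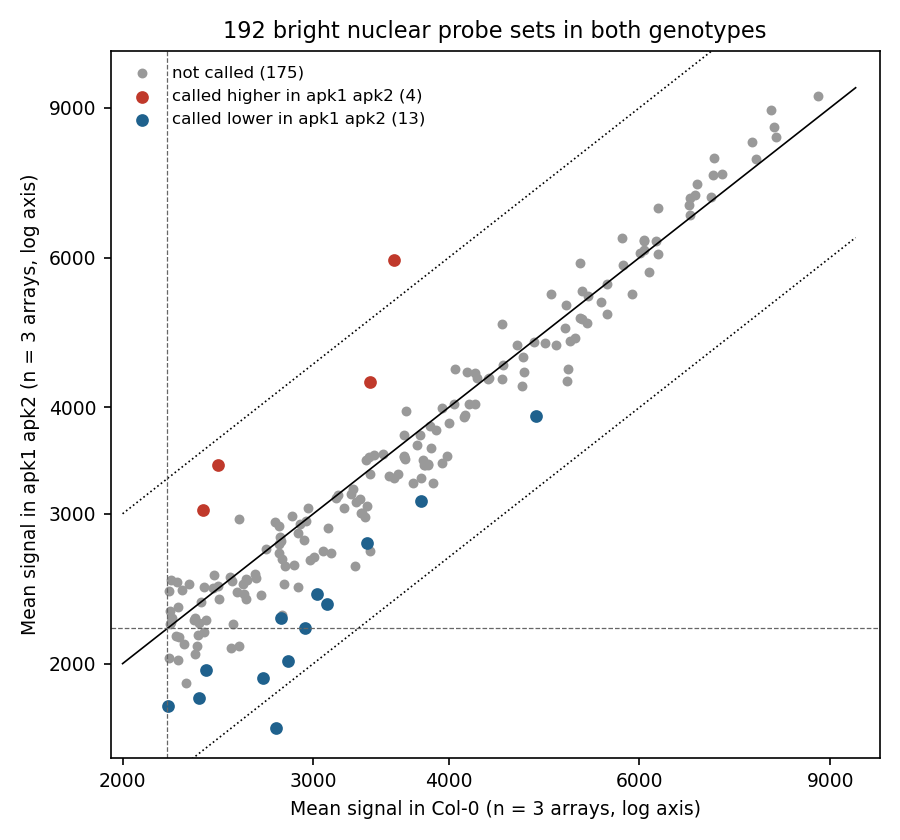
Mean signal in apk1 apk2 (vertical, log axis) against mean signal in Col-0 (horizontal, log axis) for the 192 members, 3 arrays per genotype. The solid line marks equal signal, dotted lines 1.5-fold and dashed lines the signal of 2200; red points are the 4 members called higher in the mutant and blue points the 13 called lower. All but 2 points lie between the dotted lines, and the 42 members with wild-type means of at least 5000 have no call.

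Within the list, the 17 calls all lay below a wild-type mean of 5000. Among the 42 members with a wild-type mean of 5000 or more, 0 were called by limma and 2 had an unadjusted p under 0.05. Their log2 changes ran from −0.25 to 0.17 with a median of 0.02, and 27 lay above 0. Of the 75 members from 3000 to under 5000, 2 were higher and 5 lower, with a median of −0.06. Of the 75 members from 2200 to under 3000, 2 were higher and 8 lower, with a median of −0.06. Over all tested probe sets 11.3% were called, 5.79% higher and 5.55% lower. Whether the shares of the bands differ was not tested. These bands were drawn after the values had been seen, and the lowest one lies next to the boundary of the choice.

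The next dimmer probe sets changed more often. Of 412 tested nuclear probe sets with wild-type means from 1000 to under 2200, 81 (19.7%) were called, 36 higher and 45 lower, and the genotypes did not overlap in 178 (43.2%). Their intervals lay within 1.5-fold for 361 (87.6%), and 26 (6.31%) changed at least 1.5-fold with a call. The log2 changes of the members had an SD of 0.16, against 0.32 in that band, so the members' changes were spread less widely. Replicates were not closer among the members. The median coefficient of variation of the members was 7.29% in the mutant and 7.14% in the wild type, against 5.82% and 5.32% in the band. The median residual SD on the log2 scale was 0.11 for the members and 0.09 for the band. A call thus needed a somewhat larger change among the members. This difference in spread moves with the lower share of calls, and its part in that share was not tested. Over the range of signals the share called was 5.56% from 20 to under 50, 8.32% from 50 to under 100, 11.6% from 100 to under 200, 19.0% from 200 to under 500 and 21.8% from 500 to under 1000.

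**Figure D3:**
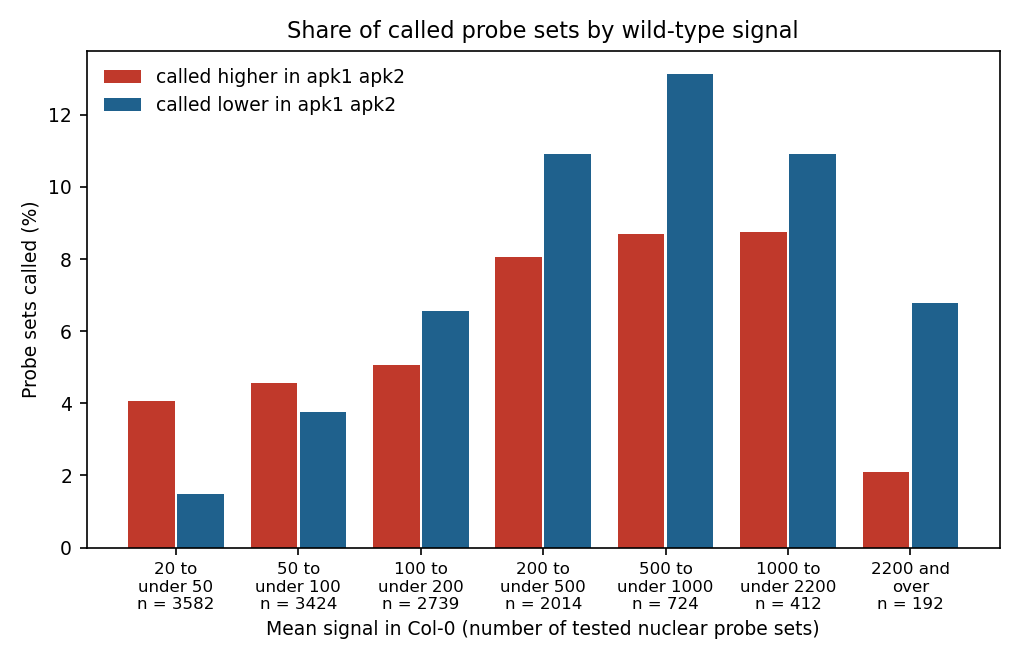
Percent of tested nuclear probe sets called higher (red) or lower (blue) in apk1 apk2 (limma, adjusted p under 0.05) in 7 bands of mean Col-0 signal, with the number of probe sets under each band. The share climbs to the bands from 200 to under 2200 and is 2.08% higher and 6.77% lower in the band of 2200 and over, which is the 192 members.

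The members moved together from array to array. As a log2 deviation from each probe set's mean over 6 arrays, their median was 0.02, 0.02 and −0.12 on mutant replicates 1, 2 and 3, against 0.12, −0.004 and −0.05 on wild-type replicates 1, 2 and 3. On the same arrays the median of the other tested probe sets stayed between −0.02 and 0.02. The median signal of the members was 3356, 3323 and 3103 in the mutant and 3592, 3319 and 3276 in the wild type. Wild-type replicate 1 was thus high and mutant replicate 3 low across the list, and the genotypes overlapped. Wild-type replicate 1 was the highest of its 3 arrays for 153 members, or 79.7%, against 35.3% of all tested probe sets. Mutant replicate 3 was the lowest of its 3 arrays for 144 members, or 75.0%, against 34.5%. The members lie outside the part of each array that the scaling averages over, which leaves out the top and bottom 2%. The part of that in these shifts was not tested. The list's median log2 change was −0.002 when wild-type replicate 1 was left out and −0.007 when mutant replicate 3 was. Members were also chosen on a pair of wild-type arrays and the mutant was set against the remaining one. The median change was then −0.15 against wild-type replicate 1, −0.02 against replicate 2 and 0.02 against replicate 3. The SD of the list's median between replicates was 0.0839, larger than the median change itself.

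**Figure D4:**
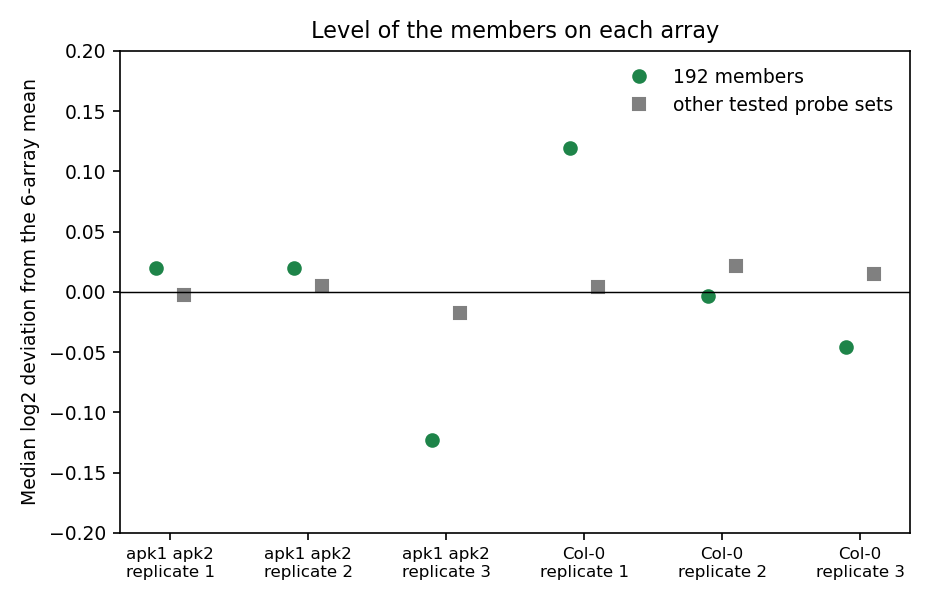
Median log2 deviation from the 6-array mean on each array for the 192 members (green circles) and the other tested probe sets (grey squares), with the 3 apk1 apk2 arrays left of the 3 Col-0 arrays. The other probe sets stay near 0, while the members reach 0.12 on wild-type replicate 1 and −0.12 on mutant replicate 3.

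The largest group among the named members was that of thylakoid proteins, with 13 genes. Of these, 0 were called higher and 1 lower, against 5.79% and 5.55% of all tested probe sets. The median log2 change was −0.08 with a range of −0.28 to 0.03, and 11 of 13 lay below 0. Over the whole list 122 of 192 members lay below 0. The lean was absent among the 42 members with wild-type means of at least 5000, where 27 lay above 0. The 1 thylakoid gene called was PSB27, a lumenal protein that assists the assembly and repair of photosystem II. It had 2957, 2766 and 2590 in the mutant, against 3182, 3659 and 3252 in the wild type. Every mutant array lay below every wild-type array, and the fall was 1.21-fold (95% interval 1.07 to 1.38, limma, adjusted p = 0.0494). The call stood at the threshold: it ended with quantile normalization (adjusted p = 0.0536), with centring of the arrays on the median of the other probe sets (0.0563) and without either of mutant replicates 2 and 3 or wild-type replicates 2 and 3 (0.0980 to 0.228). The photosystem II subunit PSBW had 3625, 3328 and 2836 in the mutant, against 4079, 3457 and 3592 in the wild type (log2 change −0.19, adjusted p = 0.279). AT4G01150, which encodes CURT1A, a protein that bends the membrane at the margins of grana, had 3569, 3318 and 3393 in the mutant, against 4134, 3627 and 3627 in the wild type (log2 change −0.14, adjusted p = 0.306). The thylakoid phosphoprotein gene AT3G47070 had 2117, 2161 and 1889 in the mutant, against 2566, 2171 and 2259 in the wild type. In CURT1A, AT3G47070 and PSBY the genotypes did not overlap, but none of them passed the test. With PSB27, 4 of the 13 thylakoid genes lacked overlap, each of them lower in the mutant. Among all probe sets tested, the share without overlap was 28.7%, made up of 15.7% lower and 13.0% higher. Whether the thylakoid share differs from these was not tested. Photosystem I and the ATP synthase were closer to 0: the log2 change was −0.05 for PSAE-1, −0.004 for PSAN and 0.03 for ATPC1.

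Of the 4 members of carbon fixation and photorespiration, SBPASE was called, against 11.3% of all tested probe sets. This phosphatase regenerates the acceptor of the Calvin cycle. It had 2621, 2421 and 2193 in the mutant, against 3213, 2903 and 2952 in the wild type, with no overlap. The fall was 1.26-fold (log2 change −0.33, 95% interval −0.51 to −0.14, limma, adjusted p = 0.0245), and the call ended without any 1 array other than mutant replicate 1. Phosphoribulokinase PRK, which makes the substrate of Rubisco, had 3402, 3622 and 2897 in the mutant, against 3801, 3658 and 3236 in the wild type (log2 change −0.11, adjusted p = 0.545). Hydroxypyruvate reductase HPR of photorespiration had 3863, 3394 and 3014 in the mutant, against 4304, 3758 and 3419 in the wild type (log2 change −0.16, adjusted p = 0.399). Both overlapped between genotypes, as did RCA with a log2 change of 0.02.

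The 7 cytosolic ribosomal proteins differed little between the genotypes. They were S8 (AT5G20290), S9 (AT5G15200), L14 (AT4G27090), L18a (AT2G34480), L26 (AT3G49910), L37 (AT1G52300) and L37a (AT3G60245). By limma 0 were called and 0 had an unadjusted p under 0.05, against 11.3% and 23.7% of all tested probe sets. The log2 changes ran from −0.15 to 0.04 with a median of −0.05. L37a had 3091, 3389 and 2904 in the mutant, against 3300, 3167 and 2985 in the wild type. Its 95% interval reached at most 1.14-fold either way, the smallest outer bound of all named members. L37 had the widest difference of the 7, with 3494, 2682 and 2840 in the mutant against 3121, 3238 and 3591 in the wild type (adjusted p = 0.418). The plastid ribosomal protein gene AT2G43030 had 2404, 2536 and 2297 in the mutant, against 2504, 2661 and 2604 in the wild type (log2 change −0.10, adjusted p = 0.456). All 8 ribosomal members overlapped between genotypes.

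Metabolic and redox enzymes did not pass the test either. By limma 0 of these 4 members were called, and 0 had an unadjusted p under 0.05, against 11.3% and 23.7% of all tested probe sets. GAPC2, a cytosolic glyceraldehyde-3-phosphate dehydrogenase of glycolysis, had 4210, 4196 and 3709 in the mutant, against 4492, 3945 and 3705 in the wild type. Its interval reached at most 1.15-fold either way. AT3G11630, the plastid 2-Cys peroxiredoxin A that removes peroxides, had 2963, 3024 and 2715 in the mutant, against 2742, 2989 and 2636 in the wild type. The genotypes overlapped for both. PRXR1, a secreted-type peroxidase, had 4791, 5149 and 4525 in the mutant, against 6023, 4974 and 4698 in the wild type. Wild-type replicate 1 was well above the other 5 arrays for PRXR1. SAMDC, which supplies decarboxylated S-adenosylmethionine to polyamine synthesis, had 2165, 1888 and 2010 in the mutant, against 2299, 2164 and 2289 in the wild type (log2 change −0.16, adjusted p = 0.248).

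Secreted and cell wall proteins differed most among themselves, with log2 changes from −0.32 to 0.34 over 7 genes. AT5G03350, a legume lectin-like protein known to be induced by salicylic acid, rose. It had 4505, 4228 and 4115 in the mutant, against 3603, 3298 and 3247 in the wild type. Every mutant array lay above every wild-type array, and the rise was 1.27-fold (95% interval 1.13 to 1.42, limma, adjusted p = 0.0124). It was the 1 named member called higher. The adjusted p was 0.0712 without wild-type replicate 2 and 0.0637 without wild-type replicate 3. AT2G45180, a secreted protein of the lipid transfer type, fell 1.23-fold (95% interval 1.08 to 1.41, adjusted p = 0.0447), with 4112, 3798 and 3802 in the mutant against 5392, 4670 and 4400 in the wild type. Its call ended with centring of the arrays on the other probe sets (adjusted p = 0.0563) and without any 1 of mutant replicates 2 and 3 and wild-type replicates 1 and 2 (0.106 to 0.134). AT2G10940, a proline-rich protein with a related domain, had 2942, 2862 and 2335 in the mutant, against 3897, 3257 and 3007 in the wild type. Its log2 change of −0.32 was about as large and did not pass the test (adjusted p = 0.0869). The arabinogalactan-type gene AT4G16980 had 2298, 2248 and 1708 in the mutant, against 2883, 2396 and 2269 in the wild type (adjusted p = 0.177). Without the variance trend or the filter on low signal, each of the calls of AT5G03350, AT2G45180, SBPASE and PSB27 ended (adjusted p from 0.0704 to 0.181). The GDSL-type esterase gene AT3G16370 was near equality, with 2726, 2471 and 2202 in the mutant and 2593, 2419 and 2338 in the wild type.

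Of the remaining 12 named members, 0 were called by limma and 1 had an unadjusted p under 0.05, against 11.3% and 23.7% of all tested probe sets. The 1 member was CP5, a lipid-binding START domain protein, with 1997, 1982 and 1721 in the mutant, against 2533, 2198 and 2129 in the wild type (adjusted p = 0.0821). AT3G48140 was the most even transcript between replicates, with 2442, 2454 and 2488 in the mutant and 2386, 2376 and 2374 in the wild type. Its groups did not overlap although the log2 change was 0.05 (adjusted p = 0.733). AT2G41090 had 5436, 4827 and 4774 in the mutant, against 4875, 4523 and 4056 in the wild type (log2 change 0.16, adjusted p = 0.303), and passed with quantile normalization (adjusted p = 0.0300). The 5 named members with the smallest outer bound of the interval were AT3G60245, GAPC2, AT3G16370, AT5G38980 and AT3G48140, all at 1.14-fold to 1.15-fold.

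**Figure D5:**
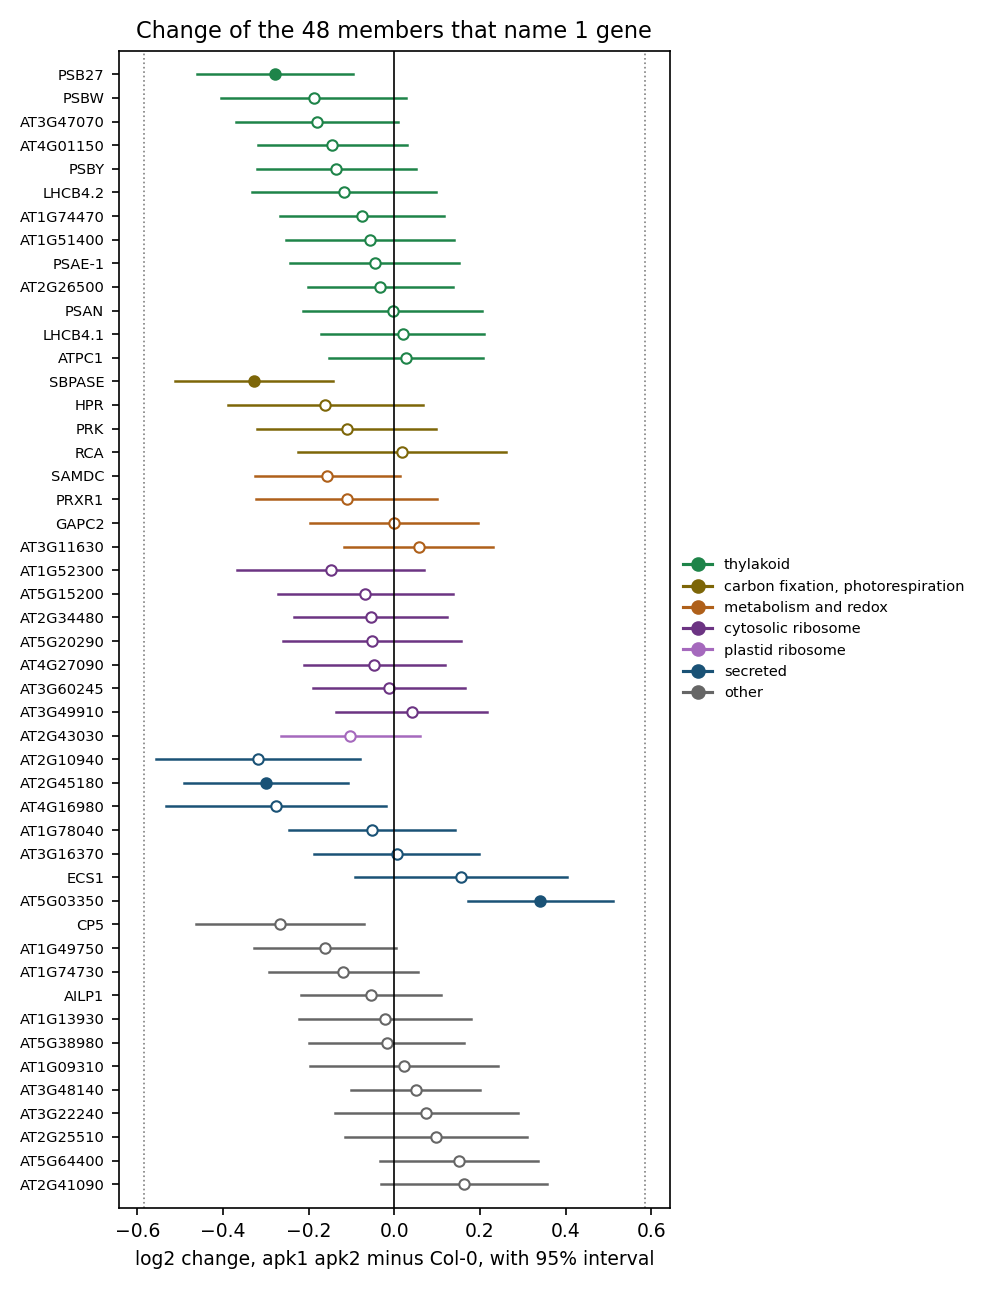
Log2 change, apk1 apk2 minus Col-0, with its 95% interval (limma, unadjusted) for the 48 members that name 1 gene, coloured by role. Filled points passed an adjusted p of 0.05 and dotted lines mark 1.5-fold. All 48 intervals lie within the dotted lines, and the 4 filled points are AT5G03350 above 0 and SBPASE, AT2G45180 and PSB27 below 0.

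The largest changes of the list belonged to probe sets without a gene name, which make up 134 of the 192 members. The signal of 267153_at was 5871, 6460 and 5551 in the mutant, against 3530, 3680 and 3473 in the wild type, a rise of 1.67-fold (95% interval 1.48 to 1.89, limma, adjusted p = 4.8e-05). That of 259640_at was 3031, 3255 and 3977 in the mutant, against 2391, 2647 and 2313 in the wild type (1.39-fold, adjusted p = 0.00812). Both were higher in every mutant array. The signal of 266215_at was 1933, 1612 and 1492 in the mutant, against 2789, 2871 and 2659 in the wild type, a fall of 1.66-fold (95% interval 1.44 to 1.91, adjusted p = 2.09e-04). That of 252115_at was 2204, 1914 and 1916 in the mutant, against 2845, 2839 and 2845 in the wild type, a fall of 1.42-fold (95% interval 1.26 to 1.60). These were lower in every mutant array, and the 3 wild-type arrays of 252115_at were nearly equal. The call of 259640_at ended without the variance trend (adjusted p = 0.0807). Of the 134 members without a name, 3 were called higher and 9 lower, against 5.79% and 5.55% of all tested probe sets. Of the 48 that name 1 gene, 1 was called higher and 3 lower, and 8.85% of all members were called. Of the 10 that name several genes, 0 were called higher and 1 lower, with 2 at an unadjusted p under 0.05.

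At the boundary the nearest named members above 2200 were AT1G74730, AT2G34480 and AT5G64400, and the nearest named probe sets below it AT3G09200, AT3G47650 and AT5G02870. AT1G74730 averaged 2030 ± 88.5 in the mutant and 2208 ± 159 in the wild type (SD, n = 3 each). AT3G09200, a ribosomal stalk protein gene just outside, averaged 2312 ± 90.6 in the mutant and 2137 ± 60.3 in the wild type. Each would be on the other side of the boundary by its mutant mean.

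Other genes of the same pathways were looked at where a probe set named them as its 1 gene, and only such genes are counted as tested below. The rest may be measured by probe sets without a name, which were not looked up. Over all tested probe sets 11.3% were called, with 5.79% higher and 5.55% lower in the mutant. Of 14 antenna genes of photosystem II, 3 were tested, 2 of them members, and 1 fell. That was LHCB4.3, not a member, with 390 ± 40.3 in the mutant and 576 ± 69.5 in the wild type (SD, n = 3 each, log2 change −0.56, adjusted p = 0.00362). Its paralogs LHCB4.1 and LHCB4.2, both members, had log2 changes of 0.02 and −0.12. Of 12 nuclear photosystem I genes 2 were tested, both members, and 0 were called, with 0 at an unadjusted p under 0.05 by limma. Of 13 for photosystem II 3 were tested, all members, and 1 fell (PSB27). Of 11 for electron transport and the plastid ATP synthase 2 were tested, both members, with 0 calls and 0 at an unadjusted p under 0.05 by limma.

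For Rubisco, the Calvin cycle and carbonic anhydrase 4 of 24 genes were tested, 3 of them members, and 1 fell (SBPASE). For photorespiration 5 of 19 were tested, 1 of them a member, and 1 fell. This was AT1G80380, glycerate kinase, with 443 ± 38.5 in the mutant and 610 ± 30.4 in the wild type (log2 change −0.46, adjusted p = 0.00375). The median log2 change of the 5 was −0.26, against −0.02 over all tested probe sets. Of the 5, 3 had an unadjusted p under 0.05, against 23.7% of all tested probe sets, of which 11.3% were called. Whether photorespiration genes as a group differ was not tested. The glycine decarboxylase genes AT1G11860 and AT1G32470 had log2 changes of −0.28 (adjusted p = 0.0764) and −0.26 (adjusted p = 0.0568). Of 10 antioxidant genes 2 were tested. Glutathione reductase GR1, not a member, rose to 741 ± 3.06 in the mutant, against 535 ± 57.6 in the wild type (adjusted p = 0.00372), and the member AT3G11630 was not called. The 1 tested gene for chlorophyll synthesis, PORB, had 1149 ± 168 in the mutant and 1164 ± 114 in the wild type (adjusted p = 0.925). Of the 5 metallothioneins, MT1C was tested and rose 1.24-fold (adjusted p = 0.0359). Of 10 genes of cold, dormancy and sugar starvation 3 were tested, none of them a member. COR15B rose 1.41-fold (adjusted p = 0.0104), COR47 fell 1.97-fold (adjusted p = 3.68e-05) and COR15A had a log2 change of −0.24 (adjusted p = 0.508). Of 7 lipid transfer genes AT2G45180 was the 1 tested. The lists for the photosystem I antenna, aquaporins, glycine-rich proteins, glucosinolate breakdown, and elongation factors with ubiquitin had no gene with a named probe set here.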

How the data were processed

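The values were the deposited intensities, which are linear. MAS5 and GCOS are the tools named per the submitters' processing notes, which give neither role nor version. The authors' scaling gave all arrays an equal mean once the top and bottom 2% of probe sets are left out. Signals were taken to log2 without an offset and normalized no further. The deposited table holds no log2 values of the authors. Of 22810 probe sets, 64 controls were left out. A signal at or over the 40th percentile in 3 or more of the 6 arrays was required, and the 13848 that remained were fitted by lmFit and eBayes of limma 3.58.1 in R 4.3.3, with a variance trend and genotype as the only term. P-values are two-sided and adjusted over all of these by Benjamini-Hochberg. The fit was tested on simulated data. Intervals are 95% without adjustment. The number of arrays, 3 per genotype, limits the precision, and an equal change of all transcripts would not be seen after scaling.

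Genes were named by a platform annotation table, updated with a gene table of TAIR10.1. The members, gene lists and tests were chosen with earlier results of these data known, and role groups, signal bands and the band from 1000 to under 2200 after the values had been seen. Named genes were, among members naming 1 gene, the 15 brightest, the called ones (up to 10 each way), the 5 steadiest, 3 either side of the boundary and the 4 brightest of each list; further members of a role group were named after their values were seen. Among probe sets without a single gene name, 2 each way are given. Sequence properties were planned and not analysed here. A planned list of cytosolic ribosomal proteins by annotated name held 48 genes, of which 0 had a named probe set. The 7 cytosolic ribosomal members were instead grouped by gene after their values were seen. Alternatives were quantile normalization, centring, other filters, an offset of 16, other variance priors, a replicate block, leaving out arrays, and other choices of members.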

Additional observations from a re-analysis of the deposited data

How the results depend on the processing

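All alternatives were planned. The counts of members called higher (4) and lower (13) became 15 and 31 of 340 members with a threshold of 1500, 2 and 5 of 117 with 3000, and 1 and 3 of the 48 that name 1 gene. Chosen on the mutant arrays they were 27 and 7 of 201, and on all 6 arrays 12 higher. Without a variance trend they were 1 and 2, with 0.0908 as the adjusted p of AT5G03350, and without the filter on low signal 5 were lower. No share over all tested probe sets was set beside the counts of these alternatives, and the cause of the shifts was not tested. When 1 array was left out, 2 to 4 were higher and 5 to 11 lower, fewest without wild-type replicate 2 (2 and 5); without wild-type replicate 3 there were 2 and 6, and without mutant replicate 3, 4 and 6. Intervals within 1.5-fold numbered 185, and 317 of 340 with a threshold of 1500 and 115 of 117 with 3000; members past the same threshold in the mutant numbered 174, and 303 of 340 and 107 of 117. The median log2 change, −0.05, was −0.15 against wild-type replicate 1 as the array held out, and −0.07 to −0.002 when 1 array was left out. With the replicate number as a block 4 were higher and 23 lower, the 17 calls among them. Deviations of arrays with the same number correlated at 0.0824, 0.0772 and 0.110 over all tested probe sets, where each array correlated best with its own number. Over the members they correlated at 0.333, 0.167 and 0.322. There wild-type replicate 2 correlated better with mutant replicate 3 (0.210) than with mutant replicate 2. The match of numbers is a hint from the data and not from the design. The labels do not say what a number shares, and the comparison was kept without the block. No called result changed sign. Depth is not defined for arrays; signals of the members lay far above the dim range.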

Other observations

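The mutant had 27 bright nuclear probe sets that were not on the wild-type list. They were chosen on the mutant arrays, so their higher values there are a description. Their wild-type means lay between 297 and 2170, and 8 of them name 1 gene. PDF1.2 and PDF1.2b, plant defensins of the jasmonate and ethylene response, averaged 2606 ± 1164 and 2804 ± 654 in the mutant, against 320 ± 72.8 and 297 ± 54.2 in the wild type (SD, n = 3 each). The probe set of PDF1.2b is of a kind that shares probes with related transcripts, so its signal may not be that of PDF1.2b alone. PDF1.2 had 1309, 2948 and 3560 in the mutant, so replicate 1 was well below the other two. BCAT4, which starts the chain elongation of methionine for glucosinolates, averaged 3981 ± 107 in the mutant and 965 ± 56.1 in the wild type. Its mutant signal would have placed it among the brighter members of the wild-type list. The glutathione transferase GSTU20 averaged 3329 ± 122 in the mutant and 1093 ± 121 in the wild type, and the glutaredoxin GRXC2 2498 ± 92.0 in the mutant and 1338 ± 70.8 in the wild type. The other 3 were the ribosomal protein genes AT3G09200 and AT2G19730 and the cysteine protease gene AT4G16190. These lay close to the boundary in both genotypes, with AT4G16190 at 2276 ± 98.9 in the mutant and 1993 ± 225 in the wild type.

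Of the 7 control probe sets that were as bright as the members, 0 were called by limma, and 1 had an unadjusted p under 0.05. Their log2 changes ran from −0.05 to 0.20, and the smallest adjusted p was 0.120.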
